A study of Cricetulus griseus with 24 samples.

Results

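The genes described here are 10 genes of the Atf4 arm of the integrated stress response, measured as mRNA in cultures of Chinese hamster ovary (CHO) cells. They were chosen by symbol: the transcription factors Atf4 (gene 100689386), Atf5 (100769320) and Ddit3 (100763514), the stress regulators Trib3 (100760725), Ppp1r15a (100757625) and Chac1 (100762174), asparagine synthetase Asns (100760225), and the serine synthesis enzymes Phgdh (100774394), Psat1 (100760751) and Psph (100755202). All 10 were found once each among the 28037 genes of the deposited count table, and all 10 passed the filter on low counts in every comparison. Chac1 had the fewest counts, with 0 to 62 in each exponential culture and each culture of CHO-S.

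The study followed antibody production in CHO cells before and after gene amplification. A0 is a low-producing clone derived from the CHO host DG44. It carries a pair of plasmids, of which one brings the IgG heavy chain and the other the IgG light chain with a neomycin resistance gene, and it was selected with G418. A1 is its progeny after stepwise selection in methotrexate and produces more antibody. CHO-S is a CHO line that makes no antibody and served the study as negative control, and its sample names (NDST) are not explained in the sources used here. Each line is a single line, so a difference between lines is a difference between these cultures of one clone, one progeny line and one control line. RNA of each line was sequenced at exponential and at stationary growth phase, with 4 cultures of A0 at each phase and 3 cultures of A1 and of CHO-S at each phase.

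The integrated stress response begins when one of the eIF2 kinases phosphorylates the initiation factor eIF2. General translation then slows, while the Atf4 mRNA, which carries upstream open reading frames, is translated more, and Atf4 protein switches on genes for amino acid supply, tRNA charging and stress signalling. In producing CHO cells the pathway is known as a response to amino acid depletion and to a loaded endoplasmic reticulum. The level of Atf4 mRNA is not the level of Atf4 protein, which was not measured here.

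The deposited counts came from 24 libraries, since each of the 4 exponential A0 cultures had 2 libraries, which were summed here to 20 cultures in all. Counts on genes ranged from 6532373 to 14652646 per library, apart from the stationary CHO-S culture 1 with 1038026. That library also had 32.8% of its reads outside genes and 50.2% on genes, where the other CHO-S libraries had 17.2% to 18.2% and 64.2% to 66.0%. It lay apart from the other stationary CHO-S cultures in several of the 10 genes, so calls of the 10 genes that rest on it are given with and without it, and the part of its depth and of these shares in the results was not tested. The exponential A1 culture 1 held 553 counts of the collagen gene Col4a1, where the other A1 cultures held 4 to 6. Col4a1 is abundant in CHO-S (1880 to 3720 CPM, the counts scaled to a common library size) and near absent in A0 (1.58 to 2.84 CPM), which goes against its place among the CHO markers, while Vim, Lgals1, S100a6 and Fn1 were at 282 CPM or more in every culture. Of 13 markers of epithelial, blood, liver, muscle and nerve cells, 9 passed the filter on low counts, and the highest was Epcam with 3.54 CPM. The share of reads not aligned moved with line and phase, from 2.31% to 3.06% in CHO-S through 3.13% to 4.85% in exponential and 6.43% to 9.41% in stationary A0, to 7.49% to 8.64% in exponential and 10.3% to 11.5% in stationary A1. The part of that share in the results below was not tested.

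From exponential to stationary phase, the stress regulators and Asns rose in both producing lines. With all cultures in the fits, the serine enzymes Phgdh and Psph did not pass the test in either, and in A0 this turned on the cultures used, as given below. In A0, 8 of the 10 genes rose, from 1.58-fold for Psat1 to 14.3-fold for Trib3. All 8 were called by edgeR's quasi-likelihood test with a Benjamini-Hochberg adjusted p under 0.05, as were 37.6% of the 20326 genes tested, with 17.6% called higher and 20% lower. In A1 the same 8 genes rose, from 1.23-fold for Ppp1r15a to 5.72-fold for Chac1, against 33.4% of all genes called with 15.6% higher and 17.8% lower. With 6 groups in 1 fit, Ppp1r15a and Psat1 were not called in A1 (edgeR adjusted p = 0.473 and 0.314). In CHO-S, 1 of the 10 rose (Ddit3) and 2 fell (Atf5 and Psat1), where 13.3% of all genes were called (6.81% higher, 6.48% lower). The median log2 fold change of the 10 genes was 1.30 in A0, 1.09 in A1 and -0.11 in CHO-S, while that of all genes tested was 4.87e-05, 0.03 and 0.02. The cultures of both phases did not overlap for 8 of the 10 genes in A0 (35.7% of all genes), 9 in A1 (43.1%) and 4 in CHO-S (36.4%, with the stationary culture 1 included). Without the stationary CHO-S culture 1, 6 of the 10 genes were called in CHO-S (2 higher, 4 lower) and 47.7% of all genes.

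**Figure D1:**
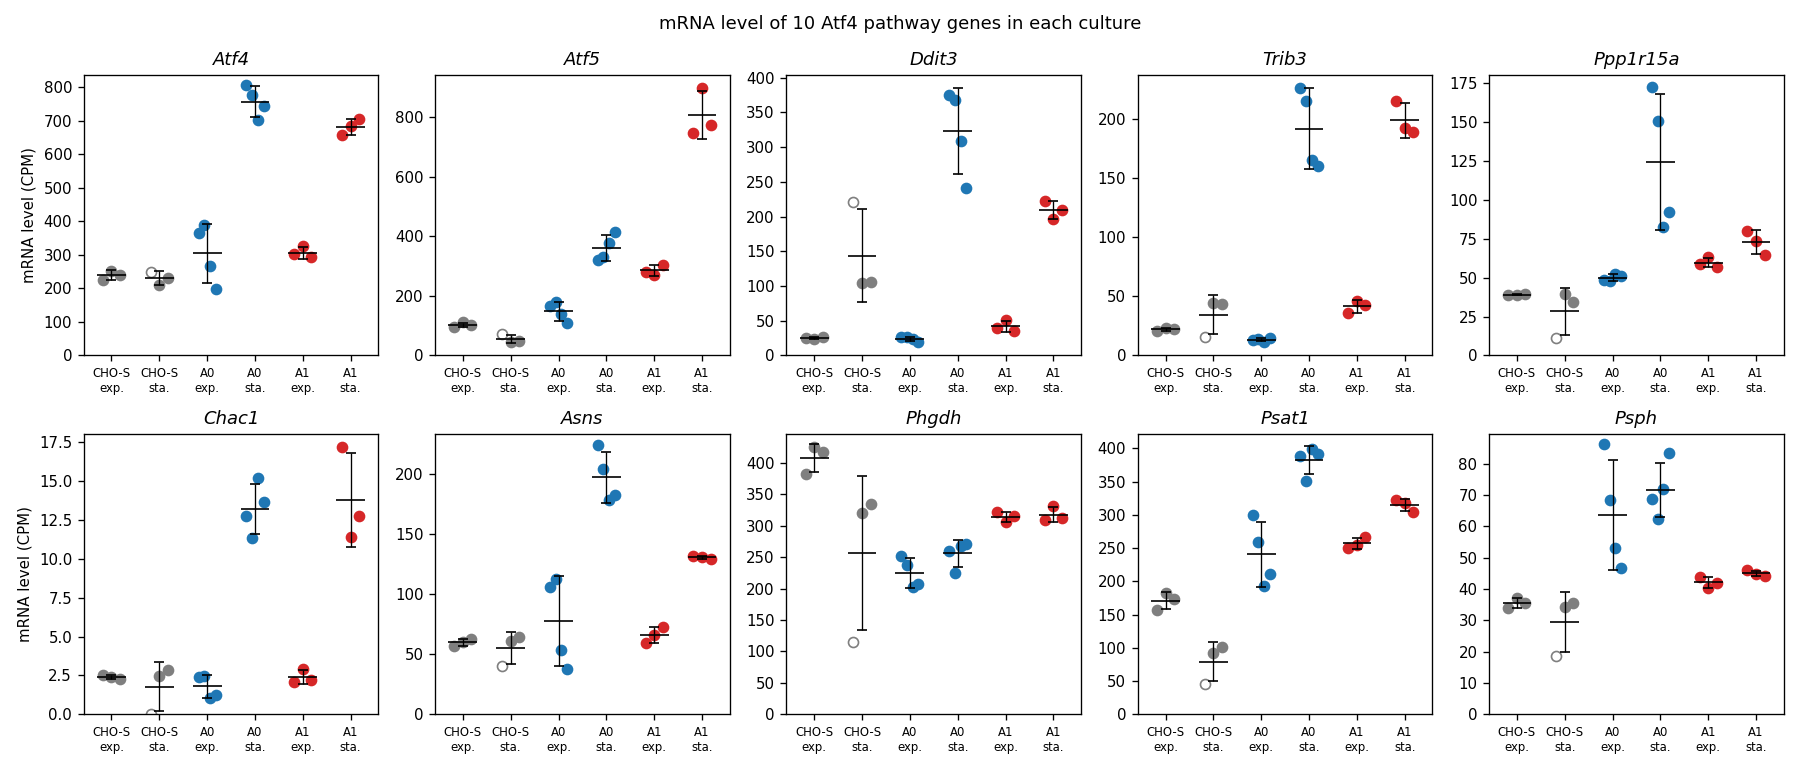
The mRNA level of each gene in CPM is plotted for every culture by line and growth phase (exp., exponential; sta., stationary), with a bar at the mean and error bars of 1 SD (n = 4 for A0, 3 for A1 and CHO-S). Open circles mark the stationary CHO-S culture 1, and in A0 and A1 the genes other than Phgdh and Psph have their stationary cultures above their exponential ones.

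Atf4, the transcription factor at the centre of the response, stood at 198, 265, 365 and 389 CPM in the 4 exponential A0 cultures and at 701, 743, 777 and 807 CPM in the stationary ones. In A1 it was at 292, 301 and 327 CPM in exponential and 657, 683 and 706 CPM in stationary cultures. The phases did not overlap in either line, and the highest exponential level of both lines was 389 CPM. In CHO-S the exponential cultures held 224, 241 and 252 CPM and the stationary cultures 211, 232 and 250 CPM, so the phases overlapped. Atf4 rose by a log2 fold change of 1.30 (SE 0.16, edgeR adjusted p = 9.91e-06) in A0 and of 1.17 (SE 0.06, edgeR adjusted p = 2.06e-16) in A1. In CHO-S the value was -0.05 (SE 0.13, edgeR adjusted p = 0.836), with an approximate 95% interval from -0.31 to 0.21. Without the stationary CHO-S culture 1 it was -0.11 and past the threshold (edgeR adjusted p = 0.042).

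Atf5, a related factor whose mRNA is also translated more under this stress, had its highest level in stationary A1. Its level was 109, 138, 166 and 181 CPM in exponential and 321, 329, 378 and 412 CPM in stationary A0. In A1 it was 271, 280 and 305 CPM in exponential and 747, 773 and 899 CPM in stationary cultures. CHO-S held 93.9, 102 and 111 CPM in exponential and 46.7, 47.4 and 70.2 CPM in stationary cultures. Atf5 thus rose with phase in A0 (log2 fold change 1.27, SE 0.14, edgeR adjusted p = 2.91e-06) and A1 (1.52, SE 0.06, edgeR adjusted p = 8.13e-18) and fell in CHO-S (-0.94, SE 0.19, edgeR adjusted p = 0.0209), without overlap of the phases in any line. The fall in CHO-S kept its direction but lost its call when any single culture other than the stationary culture 1 was left out, with edgeR adjusted p from 0.0927 to 0.123.

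Ddit3 encodes CHOP, a factor tied to cell death under lasting stress, and it rose in all 3 lines. It was at 19.4, 24.4, 26.0 and 26.3 CPM in exponential A0 and at 241, 308, 368 and 375 CPM in stationary A0. In A1 it was at 34.7, 39.9 and 51.0 CPM and then at 197, 209 and 222 CPM, and in CHO-S at 23.4, 25.3 and 26.0 CPM and then at 104, 106 and 221 CPM. The stationary level was highest in A0, and the 221 CPM in CHO-S belong to the stationary culture 1. The log2 fold change was 3.74 in A0 (SE 0.15, edgeR adjusted p = 1.22e-10), 2.34 in A1 (SE 0.09, edgeR adjusted p = 7.89e-19) and 2.49 in CHO-S (SE 0.32, edgeR adjusted p = 0.00461). The CHO-S value was 2.07 without the stationary culture 1 and 2.47 without the exponential culture 2, and in the latter fit it was no longer past the threshold (edgeR adjusted p = 0.0556).

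Trib3, a pseudokinase that dampens the response, had the largest change of the 10 genes in A0. Its level was 11.7, 12.9, 14.2 and 14.4 CPM in exponential and 160, 165, 215 and 226 CPM in stationary A0. In A1 it went from 35.7, 42.9 and 45.6 CPM to 189, 192 and 215 CPM. The stationary levels of A0 and A1 overlapped, and the exponential levels did not. The log2 fold change with phase was 3.84 in A0 (SE 0.14, edgeR adjusted p = 7.06e-11) and 2.28 in A1 (SE 0.07, edgeR adjusted p = 7.52e-20). In CHO-S, with 20.9 to 22.9 CPM at exponential phase, the stationary cultures split into 43.5 and 44.7 CPM in cultures 3 and 2 and 15.5 CPM in culture 1, of 15 counts. The CHO-S value was 0.82 (SE 0.26, edgeR adjusted p = 0.0783), and 1.02 and past the threshold without culture 1 (edgeR adjusted p = 1.14e-19).

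Ppp1r15a encodes GADD34, which brings a phosphatase to eIF2 and so ends the block on translation. Exponential A0 cultures lay close together at 48.2 to 52.4 CPM, while the stationary ones fell into 151 and 173 CPM in cultures 2 and 1 and 82.8 and 92.2 CPM in cultures 3 and 4. In A1 the level went from 57.2, 58.8 and 63.1 CPM to 64.6, 73.7 and 80.2 CPM. All stationary cultures of A0 and A1 were above the exponential cultures of their line, but the step in A1 was small. The log2 fold change was 1.30 in A0 (SE 0.18, edgeR adjusted p = 2.99e-05) and 0.30 in A1 (SE 0.07, edgeR adjusted p = 0.00179). CHO-S gave -0.30 (SE 0.28, edgeR adjusted p = 0.529), with 38.8 to 39.5 CPM at exponential phase and 39.4, 34.1 and 11.4 CPM at stationary phase, the last of these in culture 1.

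Chac1, which breaks down glutathione and is among the most Atf4-dependent genes known, had a low level in exponential cultures of every line. These held 1.07 to 2.48 CPM in A0 (26 counts at the lowest), 2.05 to 2.90 CPM in A1 and 2.40 ± 0.113 CPM (SD, n = 3) in CHO-S. Stationary A0 held 11.3, 12.7, 13.6 and 15.2 CPM and stationary A1 11.4, 12.7 and 17.2 CPM, without overlap with the exponential cultures. The log2 fold change was 2.86 in A0 (SE 0.23, edgeR adjusted p = 1.32e-07) and 2.52 in A1 (SE 0.19, edgeR adjusted p = 4.48e-12). Stationary CHO-S held 2.49 and 2.85 CPM in cultures 2 and 3 and 0 counts in culture 1, where 0 counts allow a level of up to 3.10 CPM. The change in CHO-S was 0.04 (SE 0.30, edgeR adjusted p = 0.947).

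Asns makes asparagine from aspartate and glutamine and is a standard readout of the response. In exponential A0 it was at 37.9, 53.8, 106 and 113 CPM, the widest spread of the 10 genes in that group with a coefficient of variation of 48.0%, against a median of 11.1% over all genes of at least 5 CPM. Stationary A0 held 179, 182, 204 and 224 CPM. A1 went from 59.6, 66.1 and 72.5 CPM to 130, 131 and 132 CPM, and CHO-S from 56.9, 60.1 and 62.5 CPM to 40.3, 61.0 and 64.4 CPM. The stationary levels stepped down from A0 to A1 to CHO-S without overlap, whereas the exponential levels of the 3 lines overlapped. Asns rose by a log2 fold change of 1.34 in A0 (SE 0.25, edgeR adjusted p = 4.16e-04) and of 1.00 in A1 (SE 0.07, edgeR adjusted p = 5.40e-13), and the CHO-S value was -0.07 (SE 0.18, edgeR adjusted p = 0.83).

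The 3 enzymes that make serine from a glycolytic intermediate did not move as one group. Phgdh, the first enzyme, had 202, 207, 238 and 252 CPM in exponential and 224, 260, 268 and 272 CPM in stationary A0, and 306 to 321 and 309 to 332 CPM at the respective phases in A1. The phases overlapped in both lines, with log2 fold changes of 0.18 (95% interval -0.02 to 0.38) and 0.04 (-0.07 to 0.14). Psat1, the second enzyme, rose in A0 from 192, 211, 259 and 300 CPM to 351, 388, 392 and 400 CPM and in A1 from 250, 254 and 267 CPM to 304, 318 and 323 CPM. Its log2 fold changes were 0.66 (SE 0.12, edgeR adjusted p = 4.69e-04) and 0.31 (SE 0.05, edgeR adjusted p = 3.10e-05). Psph, the last enzyme, gave 0.16 in A0 (edgeR adjusted p = 0.464) and 0.11 in A1 (edgeR adjusted p = 0.273). In A0 the Psph levels were 46.8, 53.1, 68.5 and 86.3 CPM at exponential and 62.4, 68.8, 71.9 and 83.3 CPM at stationary phase, so the phases overlapped. In A1 they were 40.4, 41.9 and 43.9 CPM and then 44.2, 44.9 and 45.9 CPM, without overlap.

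In CHO-S the values of all 3 serine enzymes were below 0. Psat1 fell from 157, 173 and 183 CPM to 101, 91.5 and 45.4 CPM (log2 fold change -1.06, SE 0.26, edgeR adjusted p = 0.0368). The lowest value belongs to the stationary culture 1, and without that culture the fall was -0.83 and still past the threshold. The fall was not past the threshold when any one of the other 5 cultures was left out, with edgeR adjusted p from 0.0766 to 0.16. Phgdh went from 382, 417 and 425 CPM to 335, 321 and 116 CPM, without overlap (-0.65, SE 0.34, edgeR adjusted p = 0.263). Without the stationary culture 1 the Phgdh value was -0.31 and past the threshold (edgeR adjusted p = 2.70e-09). Psph was at 33.8, 35.5 and 37.1 CPM and then at 35.6, 34.2 and 18.6 CPM, with a value of -0.16 (edgeR adjusted p = 0.634).

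**Figure D2:**
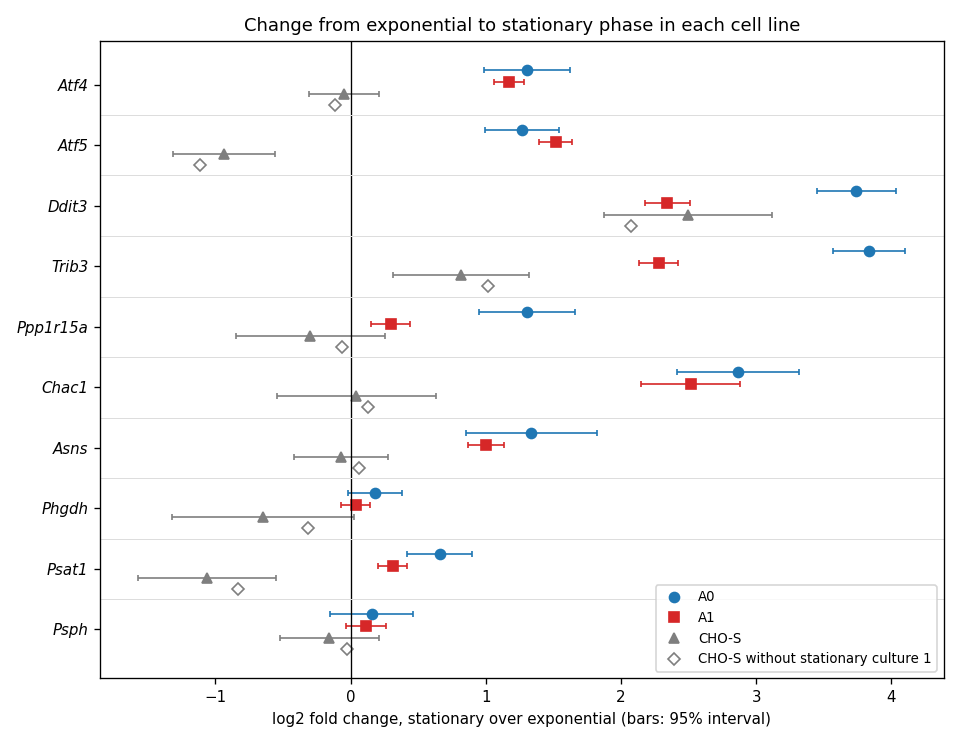
Log2 fold changes from exponential to stationary phase are plotted for each gene in A0 (circles), A1 (squares) and CHO-S (triangles) with approximate 95% intervals, and in CHO-S without the stationary culture 1 (open diamonds). Ddit3 and Trib3 reach 3.74 and 3.84 in A0 and 2.34 and 2.28 in A1. Among the genes above 0 in both producing lines and below 0 in CHO-S, Atf5 and Psat1 are those called in every line.

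Whether the change with growth phase differed between lines was tested as the interaction of line and phase. Between A1 and A0, 3 of the 10 genes differed, where 8.92% of the 20978 genes tested did (5.03% higher in A1, 3.89% lower), and all 3 rose less in A1. The difference in log2 fold change was -1.60 for Trib3 (SE 0.17, edgeR adjusted p = 4.23e-06), -1.44 for Ddit3 (SE 0.20, edgeR adjusted p = 1.01e-04) and -1.04 for Ppp1r15a (SE 0.24, edgeR adjusted p = 0.00752). For Atf4 the difference was -0.17 (95% interval -0.57 to 0.23) and for Atf5 0.21 (-0.14 to 0.57). With the culture number as a replicate block, 5 genes differed, since Asns (-0.50, edgeR adjusted p = 0.00119) and Psat1 (-0.41, edgeR adjusted p = 0.00519) joined the 3. That fit called 3432 of the 20978 genes tested, where the fit without the block called 1871.

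Against CHO-S, 8 of the 10 genes rose more in A0 (10.3% of 20902 genes called, 3.77% higher and 6.55% lower), all but Phgdh and Psph. The difference in log2 fold change ran from 1.27 for Ddit3 to 3.00 for Trib3. The call of Ddit3 was lost with A0 cultures 1 and 2 alone (edgeR adjusted p = 0.0572), and those of Ddit3 and Ppp1r15a with cultures 3 and 4 alone (edgeR adjusted p = 0.156 and 0.129), which left 7 and 6 genes called. Of all genes tested, these fits called 1994 of 20078 and 1092 of 19970. The call of Asns (1.37, edgeR adjusted p = 0.0266) was lost when any of the exponential A0 culture 3, the stationary A0 culture 1 and the 3 exponential CHO-S cultures was left out, with edgeR adjusted p from 0.0505 to 0.0653. In A1, 6 of the 10 rose more than in CHO-S (7.60% of 19662 genes called, 3.83% higher and 3.77% lower), namely Atf4, Atf5, Trib3, Chac1, Asns and Psat1, from 1.03 for Asns to 2.47 for Atf5. Between A1 and CHO-S, Ddit3 gave -0.11 (95% interval -0.76 to 0.53), and Ppp1r15a gave 0.52 (edgeR adjusted p = 0.252). Without the stationary CHO-S culture 1, 9 genes differed between A0 and CHO-S (17.2% of all genes) and 8 between A1 and CHO-S (25.4%). Phgdh was added in both comparisons and Ppp1r15a in the latter. The interactions share cultures with each other and with the comparisons above and are not independent of them.

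At exponential phase, Trib3, Atf5 and Ddit3 were higher in A1 than in A0, while Atf4 was at 307 ± 17.8 CPM (SD, n = 3) in A1 and 304 ± 88.9 CPM (SD, n = 4) in A0 (log2 fold change 0.01, 95% interval -0.33 to 0.35). Of the 10 genes, 5 were higher and 1 lower in A1, where 25.7% of the 20022 genes tested were called (12% higher, 13.8% lower). Trib3 was 3.11-fold higher in A1 (log2 fold change 1.64, SE 0.12, edgeR adjusted p = 1.40e-07), Atf5 1.92-fold (0.94, SE 0.14, edgeR adjusted p = 1.69e-04) and Ddit3 1.74-fold (0.80, SE 0.14, edgeR adjusted p = 5.43e-04). Phgdh was also higher (0.48, SE 0.10, edgeR adjusted p = 0.00193) and Psph lower (-0.60, SE 0.17, edgeR adjusted p = 0.0146). The levels of these 5 genes and of Ppp1r15a did not overlap between A0 and A1, as for 34.3% of all genes. Ppp1r15a was called at 0.25 (edgeR adjusted p = 0.0444), and that call was lost when any of 5 single cultures was left out, with edgeR adjusted p from 0.0781 to 0.217. Psph kept its direction but not its call without the exponential A1 culture 2 or 3 (edgeR adjusted p = 0.0725 and 0.0799). Without the A1 culture 1 that held Col4a1 counts, Trib3, Atf5, Ddit3, Phgdh and Psph remained past the threshold.

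At stationary phase, 2 of the 10 genes were higher and 5 lower in A1 than in A0, and 33.7% of the 19293 genes tested were called (16% higher, 17.7% lower). Atf5 was 2.22-fold higher (log2 fold change 1.15, SE 0.09, edgeR adjusted p = 6.37e-07) and Phgdh 1.23-fold higher (0.30, SE 0.07, edgeR adjusted p = 0.00572). Lower in A1 were Ppp1r15a (-0.79, SE 0.21, edgeR adjusted p = 0.00827), Psph (-0.68, SE 0.10, edgeR adjusted p = 8.21e-05), Ddit3 (-0.64, SE 0.12, edgeR adjusted p = 0.00117), Asns (-0.60, SE 0.08, edgeR adjusted p = 7.57e-05) and Psat1 (-0.29, SE 0.07, edgeR adjusted p = 0.0035). These 7 genes had no overlap between the lines, as had 39.9% of all genes. Ppp1r15a was not past the threshold without the stationary A1 culture 3 (edgeR adjusted p = 0.0543). Atf4 gave -0.16 (95% interval -0.29 to -0.03, edgeR adjusted p = 0.084), Trib3 0.04 (-0.18 to 0.26) and Chac1 0.02 (-0.28 to 0.32). Atf4 was called lower in A1 with A0 cultures 1 and 2 alone (-0.23, edgeR adjusted p = 0.0036). It was also called without the stationary A0 culture 3 (-0.19, edgeR adjusted p = 0.0495). Trib3 was called higher in A1 with A0 cultures 3 and 4 alone (0.28, edgeR adjusted p = 0.0043) and was at -0.17, uncalled, with cultures 1 and 2 alone. Ddit3 and Ppp1r15a therefore had opposite signs at the 2 phases, with the exponential call of Ppp1r15a resting on single cultures. Atf5, Phgdh and Psph were called in the same direction at both. With 6 groups in 1 fit, Phgdh, Asns and Psat1 were not called at stationary phase (edgeR adjusted p = 0.261, 0.0614 and 0.223). Phgdh was not called at exponential phase in that fit either (edgeR adjusted p = 0.0707).

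**Figure D3:**
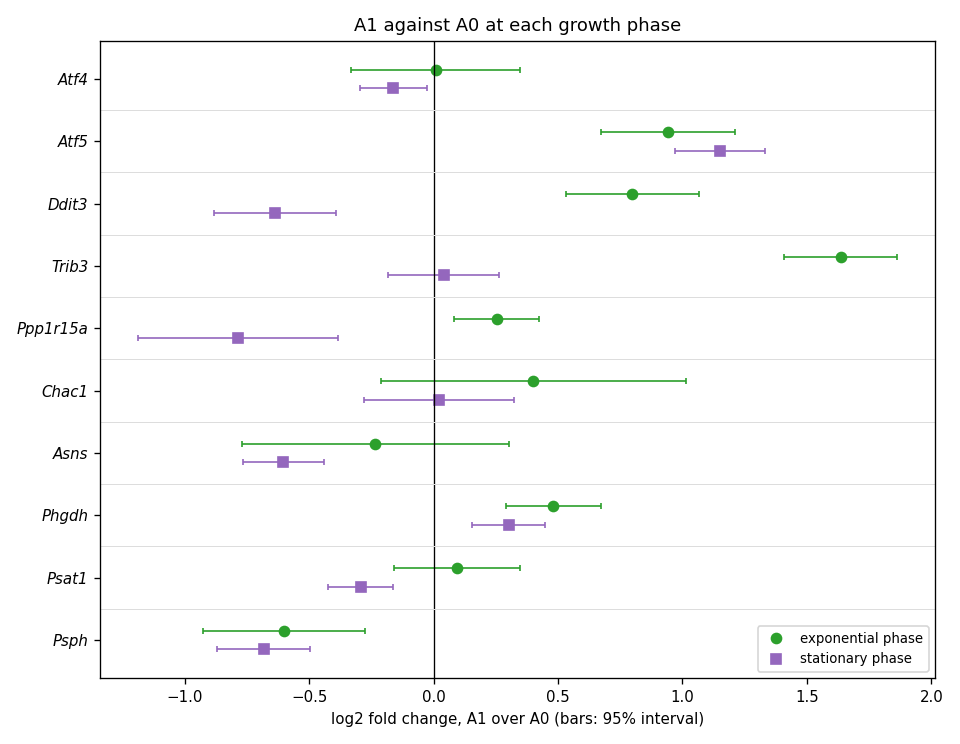
Log2 fold changes of A1 over A0 are plotted for each gene at exponential phase (circles) and stationary phase (squares) with approximate 95% intervals. Ddit3 lies at 0.80 and -0.64, Trib3 at 1.64 and 0.04, and Atf5 at 0.94 and 1.15.

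The exponential A0 cultures were of 2 kinds in several of these genes. Cultures 1 and 2, whose second library is marked RLT, were higher than cultures 3 and 4, whose second library is marked Duplicate. The ratio of the means was 2.38 for Asns, 2.12 for Chac1, 1.63 for Atf4, 1.55 for Psph, 1.41 for Atf5 and 1.39 for Psat1, and between 0.931 and 1.20 for the other 4 genes. All 4 libraries of cultures 1 and 2 were above all 4 libraries of cultures 3 and 4 for Asns (97.8 to 118 against 34.6 to 57.8 CPM) and Atf4 (337 to 413 against 192 to 296 CPM). The same order held for Atf5, Chac1, Psat1, Psph and, by a small gap, Phgdh (215 to 277 against 198 to 207 CPM). Both libraries of a culture differed by more than counting noise, most in culture 1. Its RLT library had 111 CPM of Psph where its first library had 57.9. As chi-squared per degree of freedom, the difference within a culture was 20.2, 4.71, 2.6 and 2.3 for cultures 1 to 4. Cultures 1 and 2, set against each other without their RLT libraries, gave 2.09, less than any culture showed within itself. Whether cultures 1 and 2 are independent replicates was not tested. At stationary phase the ratio of the means was 1.85 for Ppp1r15a, 1.36 for Trib3, 1.35 for Ddit3, 1.19 for Asns and 1.10 for Atf4. It was below 1 for Psat1 (0.934), Phgdh (0.897), Psph (0.845), Chac1 (0.835) and Atf5 (0.822), all of which were higher in cultures 1 and 2 at exponential phase. What sets the cultures apart is not given in the sources used here and was not tested.

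Some comparisons of A1 with A0 at exponential phase turned on which A0 cultures were used. With cultures 1 and 2 alone, Asns was lower in A1 (-0.73, edgeR adjusted p = 1.39e-04) and Atf4 was lower (-0.31, edgeR adjusted p = 0.00451). With cultures 3 and 4 alone, Asns was higher in A1 (0.52, edgeR adjusted p = 0.0266), Atf4 was higher (0.40, edgeR adjusted p = 0.0345) and Chac1 and Psat1 were called higher (1.04 and 0.34), while Psph was not called (-0.25). Trib3, Atf5, Ddit3 and Phgdh were called higher with either pair. The rise of Asns and Chac1 in A0 with phase was larger against cultures 3 and 4 alone, at 1.98 and 3.64 on the log2 scale. With that pair all 10 genes were called between the phases of A0, against 26.5% of all genes. Phgdh (0.40, edgeR adjusted p = 0.0176) and Psph (0.64, edgeR adjusted p = 0.0144) were thus called higher at stationary phase. With cultures 1 and 2 alone they were at -0.03 and -0.25, both uncalled. Of the interaction between A1 and A0, Trib3, Ddit3 and Ppp1r15a were called with either pair. With cultures 1 and 2 alone Atf5 was also called, with the higher value in A1 (0.58, edgeR adjusted p = 4.29e-04), where 22.7% of all genes were called. With cultures 3 and 4 alone 9 of the 10 genes were called, all with the lower value in A1, against 9.07% of all genes. Atf5 was not called there (-0.18).

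**Figure D4:**
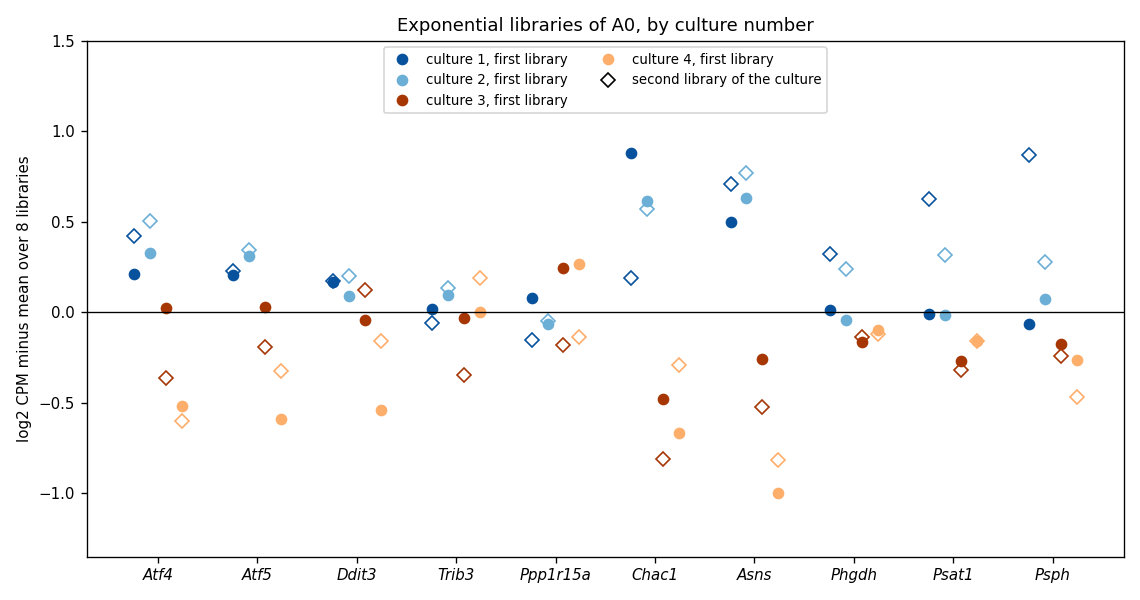
For each gene, the log2 CPM of the 8 exponential A0 libraries is plotted as the difference from their mean, by culture number (colour) and library (filled, first; open, second). All blue symbols (cultures 1 and 2) lie above all orange ones (cultures 3 and 4) for Atf4, Atf5, Chac1, Asns, Phgdh, Psat1 and Psph. Ddit3, Ppp1r15a and Trib3 show no such complete order.

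Against CHO-S at exponential phase, Phgdh was lower in both producing lines, Atf5, Psat1, Ppp1r15a and Psph were higher in both, and Trib3 was lower in A0 and higher in A1. A0 had 4 of the 10 genes higher and 2 lower, with 49.2% of all genes called (27.4% higher, 21.8% lower). Psph (0.86), Atf5 (0.55), Psat1 (0.51) and Ppp1r15a (0.36) were higher, Phgdh (-0.85) and Trib3 (-0.71) were lower, and Atf4 gave 0.36 (edgeR adjusted p = 0.109). Atf4 and Asns were called higher in A0 with a replicate block (0.50 and 0.55) and without culture 4 (0.51 and 0.61). CHO-S has no culture 4, so A0 culture 4 stood alone in its block and added nothing to the difference. The block fit and the fit without culture 4 are thus not separate results. Both genes were also called higher with cultures 1 and 2 alone (0.66 and 0.87), and were at -0.05 and -0.38, both uncalled, with cultures 3 and 4 alone. With the latter pair Atf5 was not called (0.27) and Chac1 was called lower (-1.06). A1 had 7 of the 10 higher and 1 lower, with 57.2% of all genes called (30.0% higher, 27.1% lower). Atf5 (1.48), Trib3 (0.91), Ddit3 (0.74), Ppp1r15a (0.60), Psat1 (0.59), Atf4 (0.35) and Psph (0.24) were higher and Phgdh (-0.38) was lower. With 6 groups in 1 fit, Atf4, Phgdh and Psph were not called in A1 (edgeR adjusted p = 0.092, 0.159 and 0.296). In that fit Ppp1r15a was not called in A0 (edgeR adjusted p = 0.168). Trib3 thus had CHO-S between A0 and A1, without overlap between any of the lines, and Phgdh decreased from CHO-S to A1 to A0.

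At stationary phase, 9 of the 10 genes were higher in A0 than in CHO-S, with 40.0% of all genes called (20.7% higher, 19.3% lower). The cultures of these 9 genes did not overlap between A0 and CHO-S, as for 45.1% of all genes, with the stationary CHO-S culture 1 included. The log2 fold changes ran from 1.18 for Psph to 2.74 for Atf5, and Phgdh gave -0.04 (95% interval -0.61 to 0.53). With A0 cultures 3 and 4 alone, Ddit3 was not called (0.93, edgeR adjusted p = 0.118), which left 8 genes called, against 5367 of all 18069 genes tested. In A1, 7 of the 10 were higher than in CHO-S, with 34.8% of all genes called (18.2% higher, 16.6% lower). They ran from 1.19 for Asns to 3.89 for Atf5, which is a 14.9-fold difference. Ppp1r15a (1.21, edgeR adjusted p = 0.0168) lost its call without the stationary A1 culture 1 or 2 or the stationary CHO-S culture 3, with edgeR adjusted p from 0.0516 to 0.0773. Ddit3 (0.55, edgeR adjusted p = 0.179), Psph (0.50, edgeR adjusted p = 0.0898) and Phgdh (0.27, edgeR adjusted p = 0.564) were not called. Without the stationary CHO-S culture 1, the share of all genes called was 51.8% for A0 and 57.4% for A1. In those fits Phgdh was called lower in A0 (-0.34, edgeR adjusted p = 0.00643), and Ddit3 (0.97) and Psph (0.34) were called higher in A1. In RNA of whole cultures, a higher level in every cell and more cells with the transcript cannot be told apart.

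Of the genes listed around these 10, more rose than fell with phase in both producing lines. Of 53 further genes listed by role, 50 were found by symbol, and Cebpb, Gdf15 and Vldlr were not matched. From exponential to stationary phase, 30 of the 49 tested in A0 rose and 2 fell, and 33 of the 46 tested in A1 rose and 4 fell. In CHO-S, 6 of 47 rose and 6 fell, and without the stationary culture 1, 11 rose and 22 fell. The shares of all genes called are those given above for each line. The median log2 fold change of the lists together was 0.79 in A0, 0.43 in A1 and -0.24 in CHO-S.

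Eif2ak3 (PERK, the kinase of the endoplasmic reticulum) gave 0.20 in A0 (edgeR adjusted p = 0.166) and rose by 0.29 in A1 (edgeR adjusted p = 0.00566), and Eif2ak4 (GCN2, the sensor of uncharged tRNA) gave 0.11 and 0.15, both uncalled. Eif2ak2 (PKR, the kinase of double-stranded RNA) had 0 counts in every CHO-S culture and mean levels of 9.27 to 16.7 CPM in the groups of A0 and A1. Of the partner factors, Atf3 rose in all 3 lines (2.94 in A0, 2.10 in A1 and 2.53 in CHO-S), as did Nupr1 (2.00, 1.94 and 0.76). Cebpg, with which Atf4 forms dimers, rose by 1.26 in A0 and 1.33 in A1.

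Among amino acid transporters, 7 of 9 rose in A0 and 9 of 9 in A1, although Slc7a3 had mean levels under 1 CPM in every group. Of all genes tested, 17.6% were called higher with phase in A0 and 15.6% in A1. Slc3a2, the heavy chain shared by several transporters, rose by 1.48 in A0 and 0.80 in A1, and Slc7a11, the cystine transporter, by 1.78 and 0.29. Of the tRNA synthetases, 8 of 10 rose in A0 and 9 of 10 in A1, among them Nars1, which charges asparagine tRNA (1.45 and 0.68), and Sars1, which charges serine tRNA (1.44 and 0.81). In CHO-S, Gars1 fell (-0.50) and the other 9 synthetases were not called, with the stationary culture 1 included. Of 10 enzymes of amino acid and one-carbon metabolism, Pycr1 (1.69 and 1.49), Gpt2 (1.15 and 1.11) and Mthfd2 (0.98 and 0.71) rose in A0 and A1, while Got1 fell in both (-0.29 and -0.33).

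**Figure D5:**
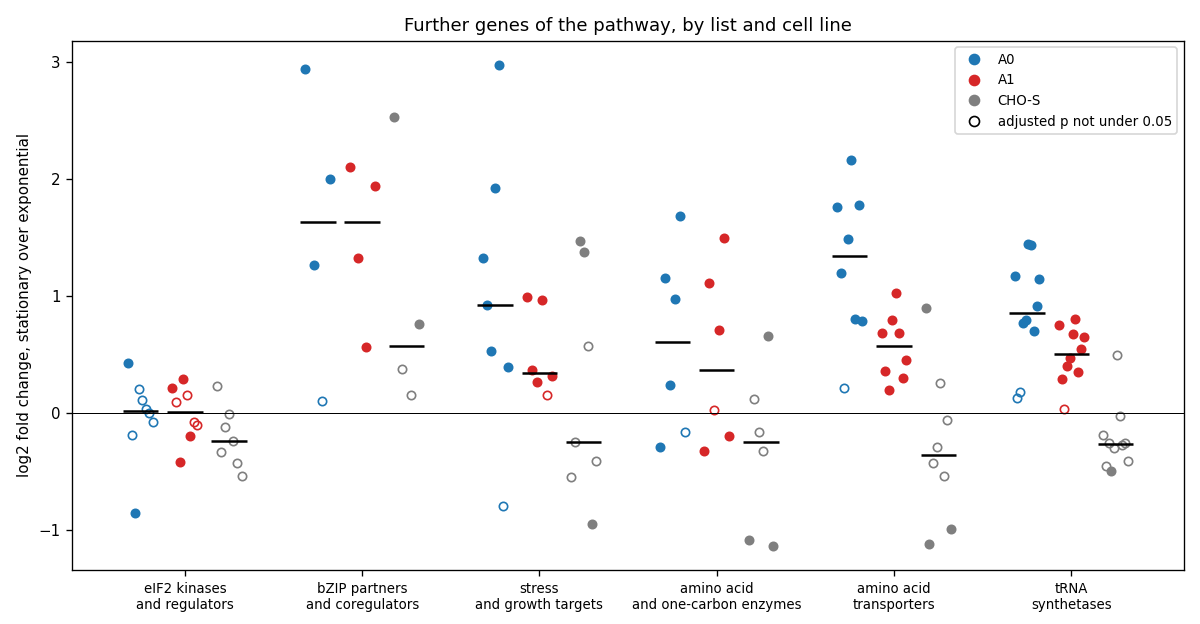
Log2 fold changes from exponential to stationary phase are plotted for the genes of 6 lists with a mean of at least 5 CPM over the groups, in A0 (blue), A1 (red) and CHO-S (grey), with filled symbols for an edgeR adjusted p under 0.05 and a bar at the median. The transporters and tRNA synthetases lie mostly above 0 in A0 and A1 and mostly below 0 in CHO-S.

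Between A1 and A0, the lists split by phase. At exponential phase 7 of 49 genes were higher and 12 lower in A1 (25.7% of all genes called), with A0 cultures 1 and 2 alone 7 of 48 were higher and 16 lower (37.2%), and with cultures 3 and 4 alone 13 of 49 were higher and 8 lower (25.2%). At stationary phase 2 of 46 were higher and 27 lower (33.7% of all genes called), among them 8 of 10 tRNA synthetases and 5 of 9 transporters, and with cultures 3 and 4 alone 3 were higher and 26 lower (37.3%). The interaction of line and phase was called for 15 of 49 genes (8.92% of all genes called), and in all 15 the change with phase was lower in A1 than in A0. With cultures 1 and 2 alone it was lower in A1 for 19 of 48 genes and higher for 3 (22.7% of all genes called). Sesn2, a stress-induced inhibitor of mTORC1 signalling, had the strongest of these interactions at -2.86 (edgeR adjusted p = 4.96e-10). Its mean level went from 9.89 to 78.7 CPM in A0 and from 46.7 to 51.8 CPM in A1, and CHO-S had 8.65 and 10.7 CPM. Slc7a11 followed the same order, from 45.3 to 156 CPM in A0 and from 92.3 to 112 CPM in A1 (interaction -1.52, edgeR adjusted p = 0.00285).

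Of 10578 genes with a mean of at least 5 CPM and leaving out the 10 genes, those whose levels, as log2 of CPM plus 0.5, followed Atf4 most closely over the 20 cultures were Ostn (Pearson r = 0.967), LOC107979488 (0.964), Aars, named Aars1 in the lists (0.944), LOC103163253 (0.943) and Cxcl3 (0.942). With the group means removed, r was 0.344 for Aars and between 0.6 and 0.827 for the other 4. Asns had the highest r with Atf4 among the other 9 genes, at 0.945, followed by Chac1 (0.875), Trib3 (0.861) and Atf5 (0.842), while Phgdh had -0.0391. These values describe 6 groups of cultures that differ in line and phase, and most of the spread lies between groups. With the group means removed, r with Atf4 was 0.814 for Asns and 0.69 for Atf5 but -0.103 for Trib3 and -0.108 for Ppp1r15a.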

How the data were processed

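RNA of CHO cells was sequenced in 24 libraries of 3 lines at exponential and stationary phase, prepared with a stranded mRNA kit. The authors aligned the reads to the C_griseus_v1.0 assembly with STAR 2.5.4b and counted them per gene with HTSeq-count 0.7.2, and deposited raw counts without normalization. The strand setting of the counting is not given in the sources used here, so overlapping genes are uncertain, and reads aligned to more than 1 place were not counted. The 5 summary lines of HTSeq-count stayed out of library sizes and tests.

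Groups came from the sample labels, and A0 libraries of the same culture number were summed. The two-sided quasi-likelihood test of edgeR 4.0.16 was run in R 4.3.3 after TMM scaling. It took every gene that had 1 count or more in 2 or more of the libraries and was not constant. Adjustment followed Benjamini-Hochberg across the genes tested (threshold 0.05). The study compared its groups with DESeq2, which served here as an alternative (1.42.0). CPM were TMM-normalized over 20 cultures. Intervals called 95% were taken from the SE by a normal approximation, which makes them too narrow for so few cultures. An interval can thus exclude no change where the test's p is above 0.05. The intervals cover the spread between these cultures only. The methods describe batch cultures in triplicate, and the labels do not say how the cultures of a line were separated, so p-values may measure technical spread. For counts of 0, 3 counts were taken as the limit that 0 counts allow. Alternatives covered the tool, size factors, filter, the samples in the fit, a replicate block, the A0 libraries and cultures, and leaving out each culture. The test was also run on simulated counts with the same dispersion for all genes, no outlying culture and no split of the A0 cultures. That setting is simpler than these data, and no result is taken from it.

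The genes named are the 10 chosen by symbol, 53 further pathway genes, cell markers and the 5 genes with the highest correlation with Atf4. These members and lists were chosen with earlier results of these data known. The labels do not say what a shared culture number marks. Deviations from the group means over 10588 genes correlated between the phases of same-numbered A0 cultures with r of 0.432, 0.319, 0.271 and 0.189, all over 0.1. The tests reported have no block, and the fit with the culture number as a block is an alternative. In the other comparisons of groups not every r passed 0.1. Coordinates and sequences are not given, since the RefSeq table used for names (CriGri-PICRH-1.0) is of another build. A result on a further gene is not reported here.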

Additional observations from a re-analysis of the deposited data

Results flagged for a closer look

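The change from exponential to stationary phase differed between lines in 17 tests of a gene, each by edgeR's test of the interaction of line and phase with an adjusted p under 0.05. The shares of all genes called are 8.92% for A1 against A0, 10.3% for A0 against CHO-S and 7.60% for A1 against CHO-S. Between A1 and A0, the difference in log2 fold change was -1.44 for Ddit3, -1.60 for Trib3 and -1.04 for Ppp1r15a, all rising less in A1. Between A0 and CHO-S it was 1.35 for Atf4, 2.22 for Atf5, 1.27 for Ddit3, 3.00 for Trib3, 1.56 for Ppp1r15a, 2.80 for Chac1, 1.37 for Asns and 1.68 for Psat1. Between A1 and CHO-S it was 1.22 for Atf4, 2.47 for Atf5, 1.43 for Trib3, 2.46 for Chac1, 1.03 for Asns and 1.34 for Psat1. With all cultures in the fits, Atf5 and Psat1 are the genes called higher with phase in both producing lines and lower in CHO-S. The comparisons share cultures, so the 17 values are not independent.

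Dixon's test put 0 of the 20 sets of 4 A0 cultures (10 genes at each phase) past its limit, where chance gives about 1 in 20. The test looks for a single outlying culture. It is not made to flag a split into pairs of cultures, such as that of exponential A0 described above.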

How the results depend on the processing

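Of 1910 log2 fold changes of the 10 genes under alternatives, 1761 kept their direction and their side of the threshold, 50 lost a call, 48 gained one and 51 changed sign. None of the values that changed sign was called in the analysis reported above. DESeq2, other size factors and a stricter filter changed no count of the 10 genes called, and leaving out a culture changed no count for the phases of A0 and A1. With 6 groups in 1 fit (21372 genes tested), calls between A1 and A0 went from 7 to 4 at stationary phase (all genes: 6496 to 5151). At exponential phase they went from 6 to 4 (5152 to 4323), without Ppp1r15a and Phgdh (edgeR adjusted p = 0.409 and 0.0707). A1 against CHO-S at exponential phase went from 8 to 5 (10568 to 7546). The phases of A1 went from 8 to 6 (6196 to 2469) and of CHO-S from 3 to 5 (2308 to 4107). Ppp1r15a between A0 and CHO-S at exponential phase lost its call (edgeR adjusted p = 0.168). So did Asns in the interaction of A1 and CHO-S (adjusted p = 0.0975). On leaving out 1 culture the CHO-S count was 6 without the stationary culture 1, 0 without the exponential culture 2 and 1 otherwise. At the 0, edgeR gave 3 of the 10 genes with an unadjusted p under 0.05 and DESeq2 called 1. With the first A0 libraries alone, all 10 genes were called for the phases of A0, and 7450 of all 19530 genes tested. With A0 cultures 3 and 4 alone, 9 genes were called for the interaction of A1 and A0 in place of 3, against 9.07% of all genes. The causes were not tested.

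With the culture number as a replicate block, A0 called 8 genes between phases as without it, CHO-S called 1 and the interaction of A1 and A0 called 5. The block added Atf4 (0.50) and Asns (0.55) between A0 and CHO-S at exponential phase and Phgdh (0.93) to the interaction of A0 and CHO-S, and Atf5 and Psat1 lost their calls in CHO-S. It changed no other call. It turned the sign of Atf4 (-0.13, A1 against A0, exponential), Trib3 (-0.028, A1 against A0, stationary), Ddit3 (0.049, A0 against CHO-S, exponential), Phgdh (0.068, A0 against CHO-S, stationary) and Chac1 (-0.029, phases of CHO-S). Same-numbered cultures correlated best with their own number in 2 of 4 pairs for the phases of A0.

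With A0 cultures 1 and 2 alone the sign turned between A1 and A0 at exponential phase for Atf4 (-0.31), Chac1 (-0.039) and Psat1 (-0.13), and at stationary phase for Trib3 (-0.17). It also turned between A0 and CHO-S at exponential phase for Ddit3 (0.073) and Chac1 (0.023), between the phases of A0 for Phgdh (-0.027) and Psph (-0.25), in the interaction of A1 and A0 for Atf4 (0.072), Chac1 (0.18), Phgdh (0.023) and Psph (0.32), and in that of A0 and CHO-S for Psph (-0.086). With cultures 3 and 4 alone it turned for Asns (0.52, A1 against A0, exponential), Chac1 (-0.11, A1 against A0, stationary), Atf4 (-0.047) and Asns (-0.38) between A0 and CHO-S at exponential phase, Phgdh (0.028) at stationary phase, and Atf5 (-0.18) in the interaction of A1 and A0. Between the phases of CHO-S, DESeq2 gave -0.027 for Chac1 and a stricter filter 0.0026 for Atf4.

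On leaving out 1 culture, values near 0 crossed it. Between A1 and A0 the ranges were -0.15 to 0.15 for Atf4, -0.46 to 0.0048 for Asns and -0.0024 to 0.21 for Psat1 at exponential phase, and -0.039 to 0.12 for Trib3 and -0.14 to 0.15 for Chac1 at stationary phase. Between A0 and CHO-S they were -0.094 to 0.038 for Ddit3 at exponential and -0.34 to 0.20 for Phgdh at stationary phase. Between A1 and CHO-S they were -0.19 to 0.060 for Chac1 at exponential and -0.067 to 0.47 for Phgdh at stationary phase. Between the phases of CHO-S they were -0.11 to 0.022 for Atf4, -0.095 to 0.13 for Chac1 and -0.19 to 0.065 for Asns. In the interactions they were -0.26 to 0.041 for Psph (A1 against A0) and -0.31 to 0.25 for Ddit3 (A1 against CHO-S).

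The number of all genes called moved by more than 1.5 times in 9 comparisons. Between A1 and A0 at exponential phase it was 5152, and 3140 without the A1 culture 3. At stationary phase it was 7606 between A0 and CHO-S, and 5043 with the block, and 6345 between A1 and CHO-S, with 4051 without the CHO-S culture 2 and 10451 without its culture 1. Between phases it was 7641 in A0 (5016 with cultures 3 and 4 alone), 6196 in A1 (2469 with 6 groups in 1 fit) and 2308 in CHO-S (350 with the block, 0 without the exponential culture 2 and 8269 without the stationary culture 1). At the 0, edgeR gave 3471 genes with an unadjusted p under 0.05 and DESeq2 called 817. The interactions gave 1871 for A1 and A0 (973 with 6 groups in 1 fit, 3432 with the block, 4586 with cultures 1 and 2 alone), 2157 for A0 and CHO-S (1092 with cultures 3 and 4 alone, 3587 without the stationary CHO-S culture 1) and 1495 for A1 and CHO-S (518 with the block, 4990 without the stationary CHO-S culture 1). Depth limits Chac1 in exponential and CHO-S cultures. The stationary CHO-S culture 1 is the shallowest library.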
